A study of Mus musculus with 14 samples.

Results

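miR-146a and miR-146b are a pair of microRNAs (miRNAs) that share their target-recognition sequence and come from separate genes. They were followed here across cell populations sorted from the mouse small intestine. They were found by name in the deposited table, where 534 of 2030 entries are miRNAs at their annotated start. Of these, 3 belong to miR-146a or miR-146b: miR-146a-5p (listed as mmu-mir-146a-5p), miR-146b-5p (mmu-mir-146b-5p) and miR-146b-3p. The first 2 could be tested, while miR-146b-3p is listed at 0 in all 14 libraries. The study sorted cells of C57BL/6J mice carrying Sox9eGFP, a transgene in which regulatory sequence of the transcription factor gene Sox9 drives green fluorescent protein. The groups are High, Low, Sublow and Negative fluorescence, with 3 small RNA libraries each, and Non-sorted cells, with 2 libraries. All groups carry the reporter and no treatment is named. The sources used here give no age for the mice, and they do not say that replicate libraries are different animals. The p-values therefore speak to the spread between libraries, which may be technical. As background on this reporter line, the Low population is rich in crypt stem cells and the High population in enteroendocrine cells, which secrete hormones. Sublow holds mainly transit-amplifying progenitors, and Negative the differentiated epithelium.

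As background, miR-146a is induced by the inflammatory transcription factor NF-kB after stimulation of Toll-like or interleukin-1 receptors. It represses the adaptor proteins Irak1 and Traf6 of the same receptors, so that it acts as a brake on the response that induced it. miR-146b has the same seed, the stretch of a miRNA that pairs with its targets, and is transcribed from another chromosome. In the gut, miR-146a has been studied in the tolerance of the epithelium to bacterial products, and it is abundant in lymphocytes and myeloid cells, which also lie in and under the epithelium.

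The mature sequences are shown because they say which reads can be told apart and why both miRNAs are counted as one seed family. They are from RefSeq (build GRCm38.p6), 5′ to 3′, with the seed (bases 2 to 8) in capitals.
miR-146a-5p: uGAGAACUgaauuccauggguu
miR-146b-5p: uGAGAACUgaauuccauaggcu
miR-146b-3p: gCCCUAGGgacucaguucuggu
The 5p forms are 22 bases long and identical at 20 of them. Counted from 1 at the 5′ end, with the base of miR-146a-5p first, the substitutions are G18A and U21C. The first 17 bases are the same, so only reads that reach base 18 separate the pair. Of 1679 mouse mature miRNA names in the RefSeq table, 2 carry the seed GAGAACU, and these are miR-146a-5p and miR-146b-5p. The opposite arm, miR-146b-3p, has a different seed.

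The hairpin precursors, with the 5p form in capitals, differ outside that form.
miR-146a hairpin: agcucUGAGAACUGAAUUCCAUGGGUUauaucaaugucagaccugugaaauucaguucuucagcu
miR-146b hairpin: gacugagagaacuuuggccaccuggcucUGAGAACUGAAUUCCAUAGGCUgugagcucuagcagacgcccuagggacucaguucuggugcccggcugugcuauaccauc
The miR-146a hairpin (gene Mir146) lies at chr11:43374397-43374461 on the minus strand of GRCm38.p6 and overlaps no other gene in the GENCODE annotation. The miR-146b hairpin (gene Mir146b) lies at chr19:46342762-46342870 on the plus strand. It is inside the protein-coding gene Mfsd13a, on the same strand, and overlaps none of its exons, so its place there is intronic. The deposited table holds no coordinates, and the build named for it is mm9.

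Levels are given in RPM, reads per 1000000 miRNA reads. Library depth, estimated from the steps between low values, was 1.89 to 16.4 M (1000000) reads. The smallest listed value was never above 10.9 reads, and a listed 0 means fewer than about 10 reads. Where a miRNA is listed as several copies, such as miR-7a-5p and miR-194-5p, the sums here and below take only its most abundant copy. All 8 miRNAs of a list of intestinal epithelial markers were listed in all 14 libraries, with a summed level of 197246 to 582433. The 3 enteroendocrine miRNAs (miR-375-3p, miR-7a-5p and miR-7b-5p) summed to 151003 to 172443 in High and to 82016 to 106946 in Low libraries. The sum was 24003 to 25588 in Sublow, 13212 to 23259 in Non-sorted and 2551 to 3634 in Negative libraries. It was thus highest in High but not particular to it. A set of 7 libraries, spread over all 5 groups, lists miR-295-3p, a miRNA of pluripotent cells, at 395 to 928, and the other 7 list it at 0. Of the 7 that list it, 1 lists the lymphocyte miRNA miR-150-5p, against 6 of the other 7.

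miR-146a-5p was highest in Low and High cells and several times lower in Sublow and Negative cells. Its level was 394, 444 and 458 RPM in the High libraries and 373, 663 and 706 in the Low libraries. In the Sublow libraries it was 135, 103 and 265. The Negative libraries had 26.6, 30.9 and 102, and the Non-sorted ones 51.3 and 77.0. The High and Low libraries overlap with each other and lie above every Sublow, Negative and Non-sorted library. Every Sublow library lies above every Negative library, but only just: Negative replicate 3 (102) and Sublow replicate 2 (103) nearly meet. From the highest, the means were 581 ± 181 (SD, n = 3) for Low, 432 ± 34.1 for High, 168 ± 85.8 for Sublow, 64.2 ± 18.2 (n = 2) for Non-sorted and 53.2 ± 42.3 for Negative cells. The neighbours High and Low, and Non-sorted and Negative, do not differ beyond their spread. Replicate 3 had the highest miR-146a-5p level in 4 of the 4 sorted populations. These values stand on an estimated 136 to 5484 reads, with a counting error of 1.35 to 8.57%. The replicate spread of Sublow (coefficient of variation 51.2%) and Negative (79.6%) is far above that error.

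miR-146b-5p had the same order of populations, with a narrower range and tighter replicates. The High libraries had 271, 259.7 and 211 RPM and the Low libraries 314, 364 and 323. Sublow had 186, 161 and 206, Negative 87.6, 90.2 and 84.3, and Non-sorted cells 107 and 119. No pair of these 5 groups overlaps, from Low at the top through High, Sublow and Non-sorted to Negative. For neither miRNA was such separation counted over the other entries, so it cannot be read as particular to the pair. The means were 334 ± 26.6 (SD, n = 3) in Low, 247 ± 32.2 in High, 185 ± 22.7 in Sublow, 113 ± 8.19 (n = 2) in Non-sorted and 87.3 ± 2.95 (n = 3) in Negative cells. From the lowest to the highest library miR-146b-5p spanned 4.32-fold and miR-146a-5p 26.5-fold. Its values stand on 398 to 3648 reads. In the 3 Negative libraries the coefficient of variation was 3.37%, within the range of their counting errors (2.72 to 4.75%).

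**Figure D1:**
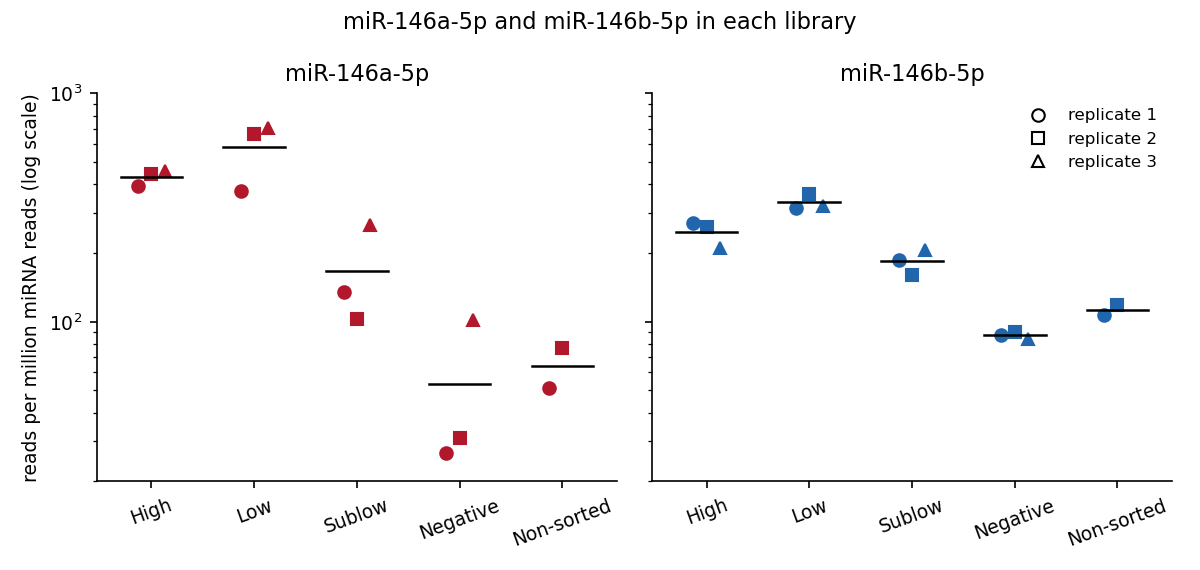
Level of miR-146a-5p (left) and miR-146b-5p (right) in each of the 14 libraries, in RPM on a log axis, by population, with the marker shape giving the replicate number and the line the group mean. miR-146a-5p runs from 706 in a Low library to 26.6 in a Negative library, and its Negative replicate 3 (102) stands above the other Negative libraries. The miR-146b-5p groups do not overlap, and how often this occurs among the other entries was not counted.

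Both tested members differed among the 4 sorted populations. In limma's moderated F test over 588 tested entries, miR-146b-5p had F = 69.7 (adjusted p = 9.13e-07) and miR-146a-5p F = 23.7 (adjusted p = 9.98e-05). Of the tested entries 72.3% passed this test and the median F was 10.2, so passing it does not set the pair apart. Adjusted p-values here and below are from limma with Benjamini-Hochberg adjustment, and fold changes are on the log2(value + 1) scale.

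Negative cells, which are differentiated, had less of both miRNAs than Low cells, the population linked to stem cells. miR-146a-5p fell by 3.64 on the log2 scale, 12.5-fold (SE 0.48, adjusted p = 3.69e-05), and miR-146b-5p fell by 1.92, 3.78-fold (SE 0.14, adjusted p = 1.92e-07). Lower entries are common in this comparison: 49.5% of the 588 were called lower in Negative and the median change was −0.90. By size the drop of miR-146a-5p stands out more than that of miR-146b-5p. Counting changes in either direction and the member itself, 56 entries changed by as much as miR-146a-5p or more and 209 by as much as miR-146b-5p. By p-value in the limma test the order was the other way, with miR-146a-5p at rank 128 and miR-146b-5p at rank 47. The values of a library add to a fixed total, of which the epithelial marker list alone took 558463 to 559871 RPM in Negative and 215198 to 244726 in Low libraries. Rescaling the libraries by median ratios moved the median change to −0.09, and the drops were then −2.78 (adjusted p = 4.61e-04) and −1.05 (adjusted p = 1.72e-04). The size of the miR-146a-5p drop also varied with the libraries used. It was −2.32 (adjusted p = 0.00929) in the 7 libraries without miR-295-3p and −4.48 (adjusted p = 1.54e-04) in the 7 with it. The labels carry lane codes, of which L000 is also called Combo with no explanation, so that it may not be a single sequencing lane. With these codes as a term the miR-146a-5p difference was −2.17 (adjusted p = 0.00442). Inside lane L005, with 1 library of each group, the difference was −1.86 for miR-146a-5p and −1.89 for miR-146b-5p.

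Sublow cells, linked to transit-amplifying progenitors, lay between Low and Negative cells in both miRNAs. Against Low cells miR-146a-5p fell by 1.85 (3.60-fold, SE 0.48, adjusted p = 0.0106) and miR-146b-5p by 0.86 (1.81-fold, SE 0.14, adjusted p = 5.44e-04), in a comparison where 24.3% of entries were called lower and the median was −0.43. With a lane term the miR-146a-5p difference was −0.82 (adjusted p = 0.209), and inside lane L005, which holds 2 Sublow libraries and 1 of Low, it was −0.98. miR-146b-5p kept its call with the lane term, at −0.74 (adjusted p = 0.0231), and after median-ratio rescaling, at −0.48 (adjusted p = 0.0473).

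From Sublow to Negative cells both miRNAs fell again, miR-146a-5p by 1.79 (3.46-fold, SE 0.48, adjusted p = 0.0110) and miR-146b-5p by 1.06 (2.09-fold, SE 0.14, adjusted p = 1.18e-04). Here 26.9% of the entries were called lower and the median was −0.37. In lane L006, with 2 Negative and 1 Sublow library, the differences were −1.81 and −0.85, and in lane L005, with 1 Negative and 2 Sublow libraries, −0.88 and −1.21. Rescaling took the miR-146b-5p difference to −0.58 (adjusted p = 0.0205). The miR-146a-5p call was lost in the 7 libraries without miR-295-3p (−0.88, adjusted p = 0.249), after median-ratio rescaling (−1.31, adjusted p = 0.0697), without Sublow replicate 3 (adjusted p = 0.0543) and without Negative replicate 1 (adjusted p = 0.0513).

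High cells, linked to the enteroendocrine lineage, did not differ detectably from Low cells in miR-146a-5p and were slightly lower in miR-146b-5p. The miR-146a-5p difference was −0.37, with a 95% interval of −1.42 to 0.68 (adjusted p = 0.628), which leaves room for a sizeable difference either way. miR-146b-5p fell by 0.44 (1.35-fold, 95% interval −0.74 to −0.13, adjusted p = 0.0362), where 20.1% of entries were called lower. This call did not hold under median-ratio rescaling (−0.11, adjusted p = 0.669), quantile normalization (−0.15, adjusted p = 0.588) or a lane term (−0.37, adjusted p = 0.128). It was also lost with no filter on low values (adjusted p = 0.139), in the 7 libraries without miR-295-3p (−0.41, adjusted p = 0.141) and in the 7 with it (−0.49, adjusted p = 0.284). Leaving out High replicate 2 or 3, any 1 of the Low libraries or Negative replicate 1 raised its adjusted p to between 0.0516 and 0.128.

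Against the dimmer populations High cells were higher in both. Over Negative cells miR-146a-5p was higher by 3.27 (9.62-fold, SE 0.48, adjusted p = 8.25e-05) and miR-146b-5p by 1.48 (2.79-fold, SE 0.14, adjusted p = 1.93e-06), with 43.9% of entries called higher and a median of 0.57. Rescaled, the miR-146b-5p difference was 0.94 (adjusted p = 2.96e-04). Over Sublow cells the differences were 1.47 (2.78-fold, adjusted p = 0.0229) and 0.42 (1.34-fold, adjusted p = 0.0254), with 28.1% called higher. No lane code is shared between High and Sublow or Negative libraries, so the lane term links them only through Low libraries. With that term the miR-146a-5p difference was 0.11 from Sublow (adjusted p = 0.924) and 1.46 from Negative cells (adjusted p = 0.0753), and that of miR-146b-5p 0.37 (adjusted p = 0.320) and 1.40 (adjusted p = 0.00296). In the 7 libraries without miR-295-3p the difference of miR-146a-5p was 2.05 over Negative (adjusted p = 0.0142) and 1.16 over Sublow cells (adjusted p = 0.0557). That of miR-146b-5p over Sublow was 0.28 in these (adjusted p = 0.228) and 0.69 in the 7 with miR-295-3p (adjusted p = 0.112). It was also not called after median-ratio rescaling (0.37, adjusted p = 0.0713) or with no filter (adjusted p = 0.0989). The call over Sublow was also lost for each miRNA when any 1 of 4 libraries was left out: for miR-146a-5p these were High replicates 2 and 3 and Sublow replicates 1 and 2 (adjusted p up to 0.0845), for miR-146b-5p High replicates 1 and 2 and Sublow replicates 1 and 2 (up to 0.0954).

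Non-sorted cells were not detectably different from Negative cells in either miRNA. Negative minus Non-sorted was −0.51 for miR-146a-5p (95% interval −1.68 to 0.67, adjusted p = 0.897) and −0.37 for miR-146b-5p (95% interval −0.71 to −0.03, adjusted p = 0.324). Neither passed, where 3.74% of entries did.

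**Figure D2:**
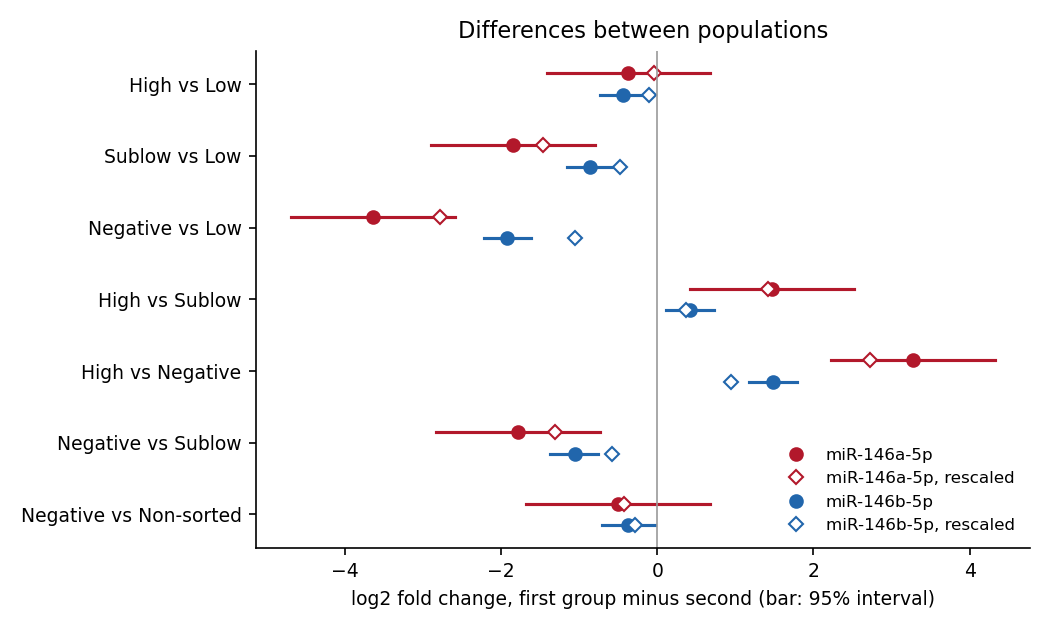
Log2 fold changes of miR-146a-5p (red) and miR-146b-5p (blue) for 7 pairs of populations, first group minus second, with 95% intervals as bars and the values after median-ratio rescaling as open diamonds. miR-146a-5p lies farther from 0 than miR-146b-5p wherever both passed, with wider intervals, and both are lowest in Negative vs Low, at −3.64 and −1.92.

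Because the pair shares a seed, its summed level and its make-up were also examined. The summed level was 915 ± 197 RPM (SD, n = 3) in Low and 679 ± 21.5 in High cells. It was 352 ± 107 in Sublow, 177 ± 26.3 (n = 2) in Non-sorted and 141 ± 39.8 in Negative cells. miR-146a-5p made up 59.2, 63.1 and 68.5% of the sum in High and 54.3, 64.5 and 68.6% in Low libraries. It made up 42.0, 39.0 and 56.2% in Sublow, 23.3, 25.5 and 54.8% in Negative, and 32.4 and 39.3% in Non-sorted libraries. miR-146a-5p was thus the larger member in 3 of 3 High and 3 of 3 Low libraries, in 1 of 3 Sublow, 1 of 3 Negative and 0 of 2 Non-sorted libraries. The exceptions in Sublow and Negative are both replicate 3.

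This ratio does not depend on how the libraries were scaled. The mean log2 ratio of miR-146a-5p to miR-146b-5p was 0.81 ± 0.29 in High and 0.75 ± 0.45 in Low cells, against −0.25 ± 0.53 in Sublow and −0.97 ± 1.08 in Negative cells (SD, n = 3 each). Differences between the 4 populations held 65.3% of its variance over the 12 sorted libraries, with an exact permutation p of 0.0409 over all 369600 assignments. Replicate 3 had the highest ratio in each of the 4 sorted populations, and with permutation only within replicate numbers the exact p was 0.00694. Without that restriction the exact p was between 0.0520 and 0.0791 when any 1 of 9 libraries was left out, namely any High or Low library, Sublow replicate 3 or Negative replicate 1 or 2. Without Negative replicate 3 the populations held 88.4% of the variance (exact p = 0.00182). The ratio was not tested with a lane term. Inside lane L005 the log2 ratio was 0.25 in Low replicate 1, −0.46 and 0.36 in Sublow replicates 1 and 3, and 0.27 in Negative replicate 3. Low and Negative thus did not differ there. Inside lane L006 it was −0.64 in Sublow replicate 2 and −1.68 and −1.52 in Negative replicates 1 and 2.

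**Figure D3:**
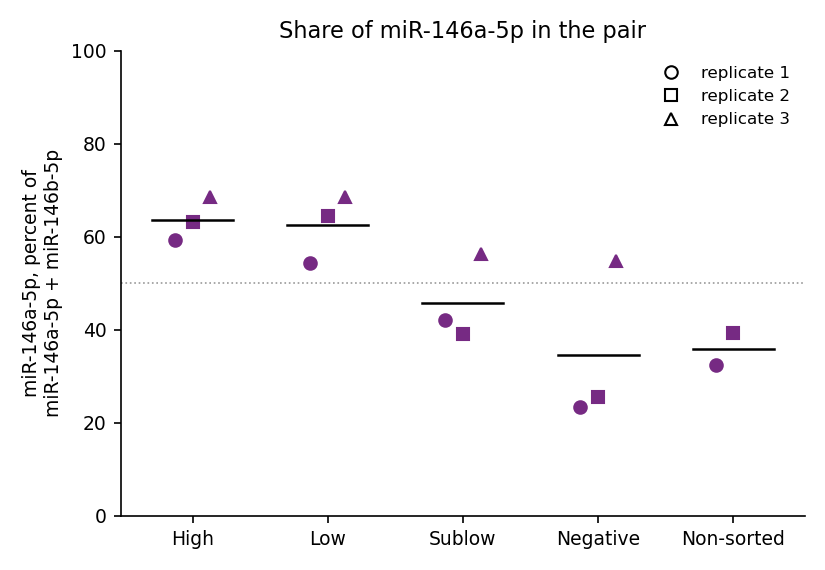
Share of miR-146a-5p in the sum of miR-146a-5p and miR-146b-5p, in percent, for each library by population, with marker shape giving the replicate number, lines the group means and the dotted line equal shares. All High and Low libraries lie above the dotted line (54.3 to 68.6%), while Sublow and Negative lie below it except for replicate 3 of each (56.2 and 54.8%).

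A further 6 entries of the pair carry a shift suffix, read here as reads that start before (−) or after (+) the annotated base, which the table does not define. A shifted start moves the seed, as the forms read from the miR-146a hairpin show, again with bases 2 to 8 in capitals.
miR-146a-5p start +1: gAGAACUGaauuccauggguu
miR-146a-5p start -1: cUGAGAACugaauuccauggguu
The miR-146b hairpin gives the same shifted seeds, AGAACUG and UGAGAAC. These forms were minor: shifted entries made up at most 5.62% of miR-146a-5p and its shifted forms in any library (median 4.19%) and at most 4.61% for miR-146b-5p (median 2.87%). Of the 6, only the +1 form of miR-146a-5p passed the filter, at 9.91, 19.2 and 14.8 RPM in High and 12.2, 23.0 and 19.3 in Low libraries. In Sublow it had 5.15, 0 and 6.08, in Negative 0, 0 and 4.62, and it is listed at 0 in both Non-sorted libraries. It reached the 10 RPM of the filter only in High and Low libraries. A lower level in the other groups was thus partly built in and does not back the main form. The +1 form was lower in Negative than in Low (−3.39, adjusted p = 0.00327) and High cells (High vs Negative 3.09, adjusted p = 0.00593). In Sublow it was lower than in Low cells (−2.40, adjusted p = 0.0395). High vs Sublow (2.11, adjusted p = 0.0505) and Negative vs Sublow (−0.98, adjusted p = 0.412) were not called. Since 0 stands for fewer than about 10 reads, these differences are not measures of its loss. The other 5 reached at most 10.6. A single library, Low replicate 3, lists a −4 form of miR-146a-5p (2.45) and a +1 form of miR-146b-3p (1.55), which is the sole listing of that arm.

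Leukocytes express miR-146a, and some of their miRNAs were detected. Of 6 leukocyte miRNAs, 6 are in the table and 4 were tested. miR-142-3p is listed at 0 in all libraries and miR-223-3p at no more than 3.35. miR-155-5p was listed in all 14 libraries, and miR-342-3p in all High, Low and Sublow and in 2 of the 3 Negative libraries. miR-150-5p, a miRNA of mature lymphocytes, was listed at 22.6 in High replicate 1, 74.2 and 39.1 in Low replicates 1 and 3, 33.9 and 52.0 in Sublow replicates 1 and 3, 39.4 in Negative replicate 3 and 3.07 in Non-sorted replicate 2, and at 0 in the other 7 libraries. miR-142-5p, a pan-leukocyte miRNA, was listed in the same sorted libraries and at 4.18 in High replicate 2. The 6 leukocyte miRNAs together summed to between 32.0 and 83.4 RPM in High and between 58.5 and 233 in Low libraries. The sum was 21.0 to 171 in Sublow, 6.51 to 105 in Negative and at most 11.3 in Non-sorted libraries. In Negative vs Low, 2 of the 4 tested were lower, miR-342-3p (−2.80, adjusted p = 5.01e-04) and miR-155-5p (−2.09, adjusted p = 0.0366). miR-342-3p reached the filter's 10 RPM only in High and Low libraries and Sublow replicate 3. Its lower level in Negative was thus partly built in. Within Sublow and Negative cells the libraries that list miR-150-5p had the higher miR-146a-5p. Within High, replicate 1 lists miR-150-5p and had the lowest miR-146a-5p of its group (394). Within Low, replicates 1 and 3 list miR-150-5p and had the lowest (373) and the highest (706) miR-146a-5p of that group. In 6 libraries both miR-150-5p and miR-142-5p are listed at 0, and there miR-146a-5p was 458 in High replicate 3, 663 in Low replicate 2, 103 in Sublow replicate 2, 26.6 and 30.9 in Negative replicates 1 and 2 and 51.3 in Non-sorted replicate 1. Of the other leukocyte miRNAs, miR-142-3p and miR-223-3p were also at 0 in these 6 libraries, and miR-155-5p was above 0 in all of them. miR-342-3p was at 0 in Negative replicate 2 and Non-sorted replicate 1 and above 0 in the rest. miR-342-3p was 25.4 in High replicate 3 and 16.1 in Low replicate 2, against 3.91 and 0 in Negative replicates 1 and 2. miR-155-5p was 11.1 and 42.4 in that High and that Low library, against 13.5 and 6.51 in the 2 Negative ones. The part of leukocyte RNA in the miR-146a-5p level was not tested. In sorted cells in bulk, fewer cells of a type and less RNA per cell cannot be told apart.

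Other markers were low. The mesenchymal list, of which 5 of 7 miRNAs are in the table, summed to 19.4 to 95.7 in all libraries, with miR-145-5p at 0 throughout. The endothelial and erythroid list, with all 4 members in the table, summed to at most 17.1, with miR-451 and miR-144-3p at 0 throughout. Their part in the miR-146 values was not tested.

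**Figure D4:**
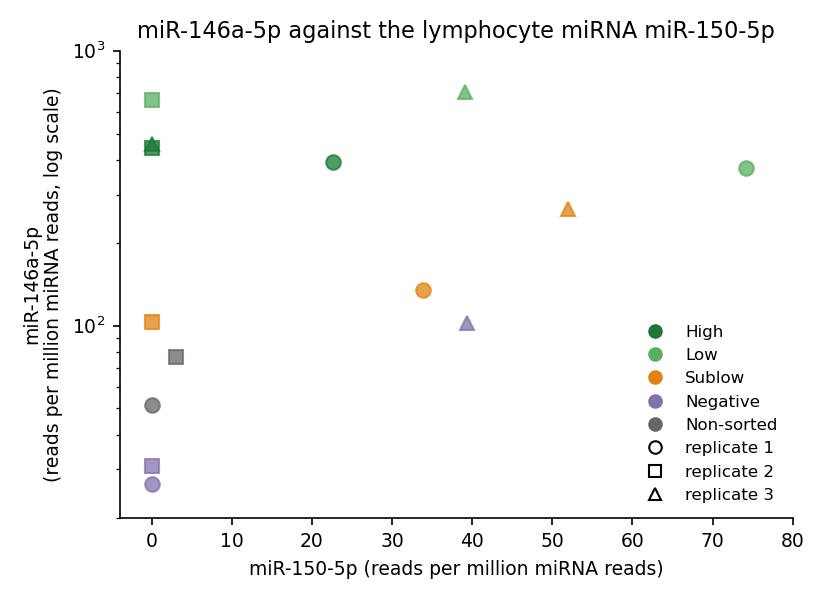
miR-146a-5p (log axis) against miR-150-5p (linear axis), both in RPM, for each library, with colour giving the population and shape the replicate number. In the 7 libraries that list miR-150-5p at 0, which means fewer than about 10 reads, miR-146a-5p runs from 663 in a Low library to 26.6 in a Negative library, and at 39.1 to 39.4 it was 706 in a Low and 102 in a Negative library.

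Other miRNAs linked to NF-kB or Toll-like receptor signalling did not move as one. Of 16 on the list, 16 are in the table and 13 were tested. In Negative vs Low, 10 were lower (against 49.5% of all entries), 2 higher (against 16.5%) and 1 did not pass, with a median of −2.09 beside −0.90 over all entries. Among the lower were miR-132-3p, which is induced with miR-146a in stimulated monocytes, at 3.15 ± 0.276 in Negative and 84.6 ± 36.8 in Low (−4.29, adjusted p = 2.30e-07), and miR-155-5p, the other classical NF-kB-induced miRNA, at 22.2 ± 21.5 and 77.4 ± 31.4 (−2.09, adjusted p = 0.0366). miR-155-5p is on the leukocyte list too and, within the sorted populations, was highest in libraries that list miR-150-5p. miR-212-3p, made with miR-132 from one transcript, averaged 13.3 in Low and is listed at 0 in all Negative libraries. It reached the 10 RPM of the filter only in High and Low libraries. Its lower level in Negative or Sublow was thus partly built in, and it still counts among the 10 lower. miR-99b-5p (−4.53), let-7e-5p (−4.90) and miR-125a-5p (−5.27), also among the lower, come from 1 cluster. The 13 are therefore not independent entries. The 2 that rose were miR-31-5p (1.16, adjusted p = 2.21e-05) and miR-147-3p (1.21, adjusted p = 0.00318), a Toll-induced miRNA of macrophages, at 36.8 ± 5.64 in Negative and 15.9 ± 5.76 in Low. miR-21-5p, which is induced by inflammatory signals, was at 0.12 (adjusted p = 0.479).

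Between the other populations the list was mixed. In Sublow vs Low 7 were lower (against 24.3%) and 3 higher (against 10.4%) of 13, with a median of −1.0 beside −0.43. In Negative vs Sublow 8 were lower (against 26.9%) and 0 higher (against 8.67%), with a median of −1.27 beside −0.37. In High vs Low 5 were lower (against 20.1%) and 1, let-7e-5p, higher (against 7.99%), with a median of 0.12 beside −0.11. The 5 were miR-21-5p (−1.18), miR-181a-1-5p (−0.44), miR-181b-2-5p (−1.65), miR-221-3p (−1.72) and miR-222-3p (−2.33). miR-132-3p, at 138 ± 21.4 in High, was at 0.77 (adjusted p = 0.0948) and miR-155-5p, at 17.9 ± 12.1, at −2.13 (adjusted p = 0.0671). In High vs Sublow 6 were higher (against 28.1%) and 6 lower (against 22.4%), with a median of −0.72 beside 0.07. In High vs Negative 6 were higher (against 43.9%) and 5 lower (against 22.4%), with a median of 0.56 beside 0.57. In Negative vs Non-sorted 3 were lower and 0 higher (against 3.74% in either direction), with a median of 0.07 beside −0.11.

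The entries whose pattern over the 12 sorted libraries was most like that of each member were found by Pearson correlation of log2 values among 274 annotated-start entries. All share the libraries and their scaling, and the values are a description. For miR-146a-5p they were miR-30d-5p (r = 0.96), miR-342-5p (0.95), miR-191-5p (0.95), miR-200c-3p (0.95) and miR-7a-2-5p (0.94). For miR-146b-5p they were miR-10b-5p (0.98), miR-455-3p (0.97), miR-200c-3p (0.97), miR-191-5p (0.97) and miR-7b-5p (0.96). miR-191-5p and miR-200c-3p are among the 5 of both members. By the marker lists, miR-200c-3p is epithelial, while miR-7b-5p and miR-7a-2-5p, a copy of miR-7a-5p, are enteroendocrine. miR-342-5p is the other arm of miR-342-3p, which is on the leukocyte list. The members correlated with each other at 0.92, which placed miR-146b-5p at rank 11 for miR-146a-5p and miR-146a-5p at rank 22 for miR-146b-5p. In Low and Negative cells miR-342-5p averaged 148 ± 26.6 and 13.7 ± 5.04 RPM (SD, n = 3), and miR-10b-5p 548 ± 76.5 and 52.2 ± 16.5. miR-200c-3p, at 22474 ± 1086 and 11422 ± 652, had a shallower course. miR-455-3p averaged 36.0 in Low and is listed at 0 in all Negative libraries.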

How the data were processed

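Small RNA was sequenced from 14 libraries made with the TriLink CleanTag kit, per the labels. The authors deposited 1 table of 2030 miRNA entries in RPM (reads per 1000000 miRNA reads), each library adding to that total. Per the submitters' processing notes the build is mm9. The aligner is not given in the sources used here, nor is the counting. Depth was estimated from the steps between low values, of which 71.2 to 85.8% per library were whole reads within 0.1 read. This is too few for a count test. Counting errors cover counting only.

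Entries with at least 10 RPM in at least 3 libraries were tested (588, of which 275 at the annotated start). A model of the 5 groups was fitted to log2(value + 1) in all 14 libraries with limma 3.58.1 (R 4.3.3, mean-variance trend), two-sided, Benjamini-Hochberg over the 588, threshold 0.05. The ratio of the pair was tested by exact permutation (Python 3.11.15). The fitting was also run on simulated data with independent noise in each library. These had no lane, replicate-number or miR-295-3p structure, so that run says nothing about such effects. Named are the members, their shifted entries, members of the miRNA lists and the 5 entries most like each member. The members and lists were chosen with earlier results of these data known. Alternatives were pseudocounts, filters, scalings, a replicate block, lane codes in the labels, libraries split by miR-295-3p (added after seeing the data), and leaving out libraries.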

Additional observations from a re-analysis of the deposited data

How the results depend on the processing

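Over 455 recomputed values of 17 results, 405 kept their direction and side of the threshold (or, without a test, stayed within the replicate spread), 44 lost their call, 6 moved, and 0 turned. miR-146a-5p and miR-146b-5p in Negative vs Low, and the difference of each among the sorted populations, kept their call in every tested alternative. Depth limits the shifted forms and the miR-146b-3p arm, which lie near the smallest listed values.

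Log2 differences that lost their call were as follows. For miR-146b-5p, High vs Low was −0.44 with no filter, no mean-variance trend or a replicate block, −0.11 after median-ratio rescaling, −0.15 after quantile normalization and −0.37 with a lane term. High vs Sublow of miR-146b-5p was 0.42 with no filter, 0.37 after rescaling and 0.37 with a lane term. For miR-146a-5p, Negative vs Sublow was −1.31 after rescaling, and with a lane term Sublow vs Low was −0.82, High vs Sublow 0.11 and High vs Negative 1.46. Values inside a lane had no test, so they have no call to lose, and those that moved beyond the replicate spread follow. Within lane L005, Sublow vs Low was −0.98 for miR-146a-5p and −0.68 for miR-146b-5p, and Negative vs Sublow was −0.88 and −1.21. Negative vs Low of miR-146a-5p was −1.86 there. Within lane L006, Negative vs Sublow of miR-146b-5p was −0.85. The causes were not tested.

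Alternatives added after seeing the data took the 7 libraries with miR-295-3p and the 7 without it separately. In the 7 without it, High vs Sublow was 1.16 and Negative vs Sublow −0.88 for miR-146a-5p, and High vs Low −0.41 and High vs Sublow 0.28 for miR-146b-5p, all above the threshold. In the 7 with it, High vs Low was −0.49 and High vs Sublow 0.69 for miR-146b-5p, also above it. Here some groups have 1 library, assumed to vary like the others. A term for miR-295-3p changed no call.

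Leaving out 1 library at a time gave the following ranges. For miR-146a-5p, High vs Sublow was 1.18 to 1.86 and Negative vs Sublow −2.39 to −1.40. For miR-146b-5p, High vs Low was −0.51 to −0.33 and High vs Sublow 0.32 to 0.53. The share of variance of the pair's ratio between populations was 58.1 to 88.4%.

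Each replicate number goes with 1 code in the labels that is shared across groups and not explained there. Deviations of same-numbered libraries had a median correlation of 0.32 (−0.35 to 0.78), against −0.11 for different numbers, and 11 of 14 libraries correlated best with their own number. This is at most a hint of pairing, since every replicate 2 library lists miR-295-3p and the number overlaps with that split. Negative replicate 1, which also lists it, correlated at −0.23, −0.21 and −0.35 with High, Low and Sublow replicate 1. With replicate 2 of the same groups it correlated at 0.48, 0.61 and 0.71. The correlation was over 0.1 in 16 of 26 same-numbered pairs, with every pair over it between Sublow and High (0.37 to 0.60) and between Sublow and Low (0.39 to 0.71), but not for the other pairs of groups. With the replicate block, calls in Negative vs Low went from 388 to 396 and in High vs Low from 165 to 177, and the exact p of the ratio was 0.00694. Besides High vs Low of miR-146b-5p (−0.44, adjusted p = 0.0537) the block changed no call.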
